A study of Arabidopsis thaliana with 12 samples.

Results

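This account is about the response of the atg5 line to water stress medium, taken over every row of the gene count table deposited for that line. It compares 3 libraries of atg5 seedlings in water stress medium (WSM) with 2 libraries of atg5 seedlings in control medium (NM). The labels list 3 NM samples of atg5, of which 1 is not analysed here because the table holds 2 NM columns. The table holds 20492 genes, out of 20780 in the 2 tables of the series, and 778 of its rows are absent from the wild-type table. Arabidopsis thaliana seedlings were sampled after 5 days of germination in medium in a flask. The labels give both groups the same insertion in ATG5 (line SALK_020601C), so by its labels the comparison has no wild-type arm and shows nothing by itself about the mutation. WSM held 0.5% sucrose, 2.5% glycerol and 0.5% alginic acid, and NM held 0.5% sucrose without the other additions. Glycerol and alginic acid were added together, so their effects cannot be told apart. Nothing in the labels says that the libraries came from separate flasks, so p-values here reflect only how far these samples scatter, and that scatter may be technical.

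ATG5 is the scaffold of the enzyme complex that couples ATG8 to lipid, a step without which autophagosomes, the vesicles that carry cell contents to the vacuole, do not form. Plant cells that meet osmotic or mechanical stress raise cytosolic calcium, make reactive oxygen, and activate mitogen-activated protein kinases, which act on WRKY, ERF and zinc finger transcription factors within minutes. The same early genes answer wounding and microbial patterns, and jasmonate, salicylate and abscisic acid then shape the slower programmes of defence and water saving.

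Library totals ran from 8928632 to 23936030 counts in WSM and were 24022759 and 20343338 counts in NM, with 19.0% to 65.5% of each in genes of the rRNA regions. WSM library 1 held 3076084 counts outside those regions, against 12373176 to 16634690 in the other 4 libraries, and stood apart on the first principal component, at 125, while the others lay between -71.6 and 24.8. A locus on chromosome 3 also split the group: PREP1 (AT3G19170, chromosome 3, 6625377 to 6632164, minus strand) encodes an organellar enzyme that degrades cleaved targeting peptides. Its counts were 349, 4 and 2412 in WSM libraries 1, 2 and 3, against 2 and 0 in NM libraries 1 and 3. Its neighbour PARC6 (AT3G19180), a chloroplast division protein, stood at 3.09, 0 and 7.05 CPM in WSM, against 0 and 0 CPM in NM, and ATG2 (AT3G19190), which supplies lipid to growing autophagosomes, at 9.08, 27.4 and 6.49 CPM in WSM, against 30.6 and 24.9 CPM in NM. Only WSM library 2 therefore had NM-like counts at PREP1, and the calls from that library alone against both NM libraries are also given below. Whether the libraries came from the same seed source was not tested. For WSM libraries 1 and 3 against NM, a difference in it could not be told apart from the medium, while WSM library 2 shared their medium. ATG5 itself (AT5G17290, chromosome 5, 5686135 to 5689947, minus strand) was counted in all 5 libraries, at 33.2, 27 and 31.8 CPM in WSM, against 20.2 and 28.4 CPM in NM. A count over the whole gene does not show an insertion, and 27.6% of its exon length is shared with an antisense gene.

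Far more genes were called higher than lower in WSM in the reported fit. Of 20492 genes tested, 295 rose and 8 fell in WSM (adjusted p under 0.05, from edgeR with quasi-likelihood F tests). That is 1.44% and 0.039% of all genes, or 1.48% in either direction. The risen genes had a median log2 difference of 2.99 (WSM minus NM) and none under 1.59, while the median of all genes was 0.0011. In all 303 called genes the 3 WSM libraries and the 2 NM libraries did not overlap. Over all genes tested, called or not, 17.1% lay wholly higher and 15.3% wholly lower in WSM, so separation of the groups is common in this table. At an unadjusted p under 0.05 there were 1824 higher and 1043 lower genes. The imbalance of rises over falls depended on the library: without WSM library 1 the calls were 483 higher and 130 lower, and WSM library 2 alone against both NM libraries gave 394 higher and 91 lower. Without WSM library 3 there were 104 higher and 0 lower. Leaving out NM library 1 or 3 left 3 and 15 calls in all, and the cause was not tested. In every one of these fits the called genes that could be fitted kept their direction. As the groups of these genes did not overlap, leaving libraries out could hardly reverse a direction, so this is no check on the calls. The fit of WSM library 2 alone holds 1 WSM library and takes its spread from both NM libraries. It shares all 3 with the main fit, so it is no independent check.

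**Figure D1:**
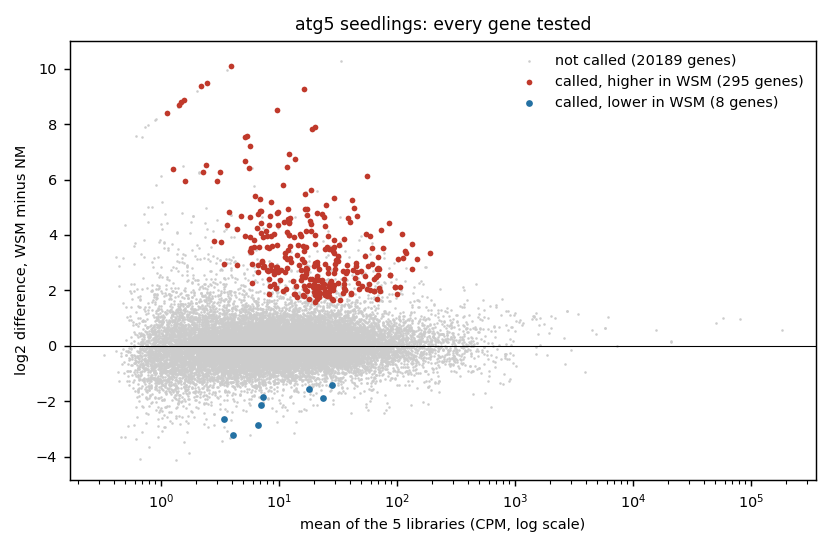
Each point is a gene, with its mean over the 5 libraries in CPM on a log axis and its log2 difference (WSM minus NM) on the other axis. The 295 genes called higher sit above a log2 difference of 1.59, and the 8 called lower lie below the zero line.

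**Figure D2:**
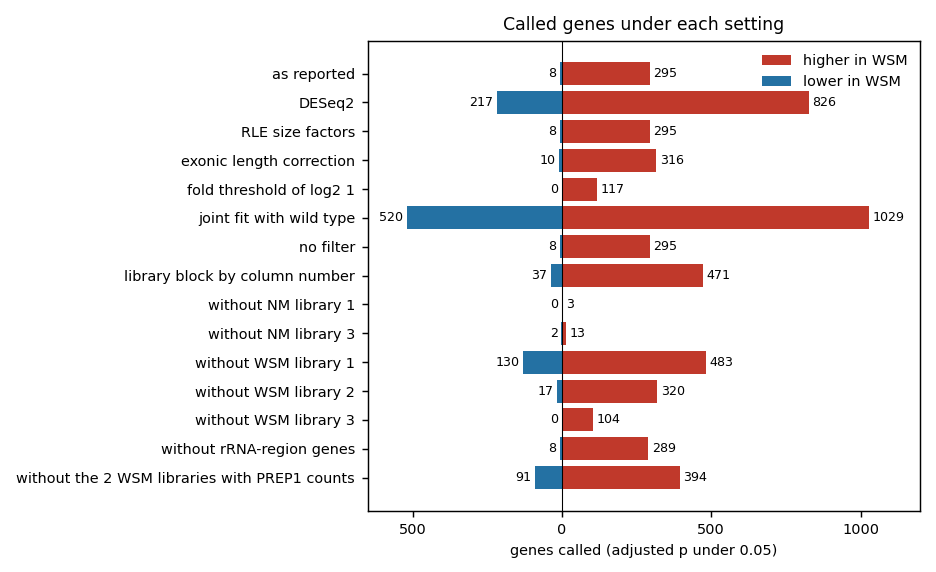
Bars to the right count genes called higher in WSM and bars to the left genes called lower, for the reported fit and each alternative. Calls higher in WSM ranged from 3 without NM library 1 to 1029 in a joint fit with the wild-type libraries.

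Taking called genes whose mean reached 5 CPM or more, the largest rises were in genes that were almost silent in NM. PP2-B14 (AT1G56250, chromosome 1, 21061522 to 21063047, minus strand), a phloem lectin family protein, stood at 9.9, 20.2 and 18.1 CPM in the WSM libraries, against 0.0659 and 0 CPM in the NM libraries. It had 2 counts in the NM libraries together, and its level in WSM was 462 times (95% counting interval 128 to 3821) that in NM (edgeR adjusted p = 0.00506). All 3 WSM libraries were high and both NM libraries near 0. Its neighbour PP2-B13 (AT1G56240, chromosome 1, 21056099 to 21057577, minus strand) stood at 31.6, 38.5 and 30.4 CPM in WSM, against 0.231 and 0 CPM in NM. For PP2-B13 the log2 difference was 7.91 ± 0.71 (SE, edgeR adjusted p = 0.00506). As 63.5% of the exons of PP2-B13 lie in those of the antisense RNA gene AT1G56242 (7.83 log2), and counts were summed without strand, reads of this pair cannot be told apart. The same holds for the RNA gene AT4G08985, at 31.4, 30.8 and 20.5 CPM in WSM, against 0.0659 and 0 CPM in NM, whose exons lie wholly inside those of RRTF1. It had 2 counts in NM, and its level in WSM was 663 times (95% counting interval 183 to 5482) that in NM. PP2-B13, AT1G56242 and AT4G08985 were the 3 genes that stayed called without each of the 5 libraries in turn.

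CML37 (AT5G42380, chromosome 5, 16942447 to 16943820, minus strand), a calmodulin-like calcium sensor, stood at 4.13, 12.6 and 9.15 CPM in the WSM libraries, against 0 and 0.102 CPM in the NM libraries, and its level in WSM was 262 times (95% counting interval 72.3 to 2169) that in NM. GSTU11 (AT1G69930, chromosome 1, 26337481 to 26338818, minus strand), a glutathione transferase of the tau class, stood at 13.2, 7.52 and 7.94 CPM in WSM, against 0.0989 and 0 CPM in NM, and its level was 136 times (95% counting interval 46.3 to 662) that in NM. FAMT (AT3G44860, chromosome 3, 16379571 to 16381434, plus strand), which methylates farnesoic acid, was highest in WSM library 1, at 43.9, 11.6 and 5.32 CPM in WSM, against 0.198 and 0.102 CPM in NM. For FAMT the log2 difference was 6.92 ± 1.13 (SE, edgeR adjusted p = 0.0259). The 3 WSM libraries differed among themselves by several fold in FAMT and still lay far above both NM libraries. CBP60G (AT5G26920, chromosome 5, 9475679 to 9478777, plus strand), a calmodulin-binding activator of salicylate synthesis, stood at 2.89, 8.85 and 14.1 CPM in WSM, against 0.0659 and 0.102 CPM in NM. For CBP60G the log2 difference was 6.67 ± 0.90 (SE, edgeR adjusted p = 0.0136). The remaining members of the largest rises were AT5G11140, annotated as a phospholipase-like PEARLI 4 protein, at 7.43, 11.6 and 8.06 CPM in WSM, against 0 and 0.102 CPM in NM, and AT3G02840, an ARM repeat protein, at 9.9, 32.3 and 25.4 CPM in WSM, against 0.132 and 0.305 CPM in NM. CML37, GSTU11 and AT5G11140 had 2 or 3 counts in NM together, so their ratios rest on those few counts, and the intervals cover counting error only.

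**Figure D3:**
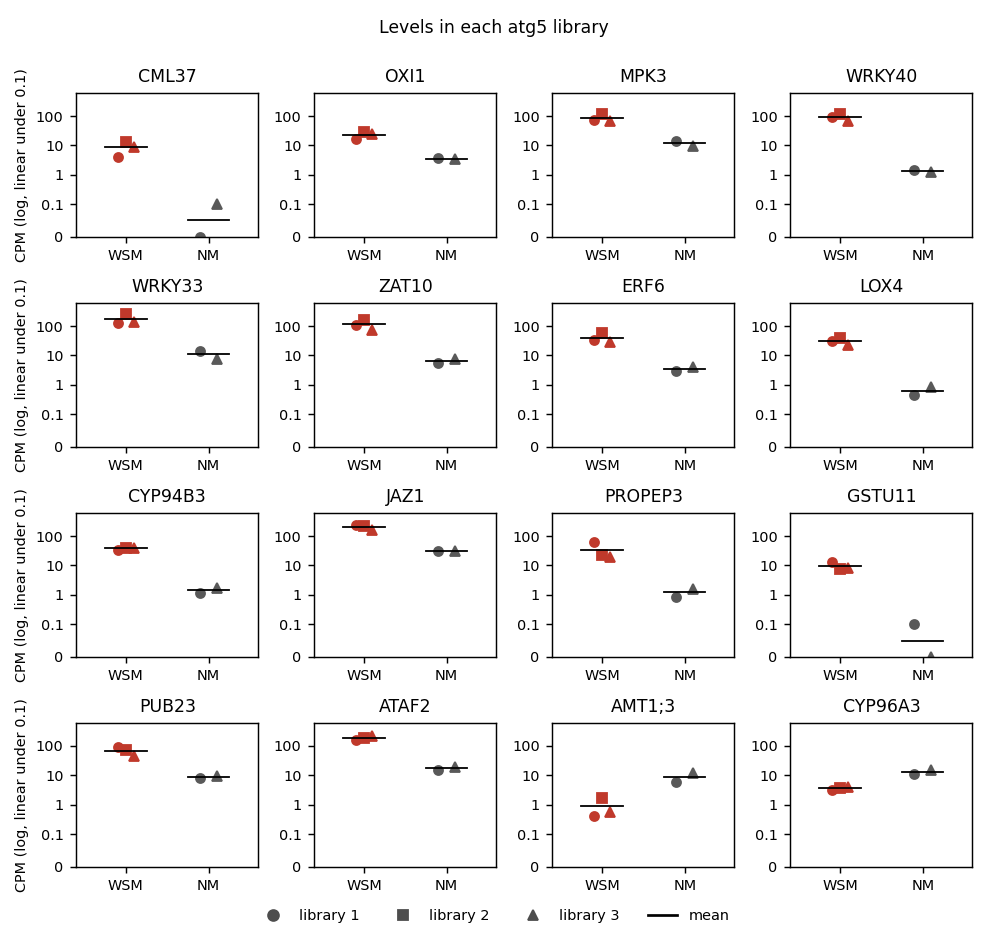
Levels of 16 genes in CPM in each atg5 library, on an axis that is logarithmic above 0.1 CPM and linear below it, with the WSM libraries left of the NM libraries and a line at each mean. In 14 genes every WSM library lies above both NM libraries, and in AMT1;3 and CYP96A3 every WSM library lies below them.

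Calcium sensors and touch genes rose in 4 of 14 members tested, with 0 falls and a median log2 difference of 1.25, against 0.0011 for all genes. Besides CML37 the risen members were TCH3 (AT2G41100), a calmodulin-like protein first found as touch-induced, CML9 (AT3G51920), a calmodulin-like sensor, and CPK28 (AT5G66210), a calcium-dependent kinase that promotes turnover of an immune kinase. TCH3 stood at 191, 245 and 466 CPM in the WSM libraries, against 28.5 and 30.6 CPM in the NM libraries. For TCH3 the log2 difference was 3.35 ± 0.50 (SE, edgeR adjusted p = 0.0196). CML9 stood at 86.8, 55.4 and 66.3 CPM in WSM, against 14.7 and 18.6 CPM in NM, and differed by 2.06 ± 0.35 (SE, edgeR adjusted p = 0.0297), and CPK28 by 1.87 ± 0.31 (SE, edgeR adjusted p = 0.0282). Outside this list, 3 of 34 genes annotated only as calcium-binding EF-hand family proteins rose too. CML38, a close relative of CML37, stood at 189, 45 and 129 CPM in WSM, against 2.44 and 24.7 CPM in NM, with groups that did not overlap, and was not called (edgeR adjusted p = 0.203). TCH4 (64.8, 221 and 153 CPM in WSM, against 29.8 and 25.1 CPM in NM), a wall-modifying enzyme of the same touch response, was not called either (adjusted p = 0.08).

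Of 15 genes of MAP kinase cascades 4 rose and 0 fell. MPK3 (AT3G45640, chromosome 3, 16756571 to 16758874, plus strand), a terminal kinase of the stress cascade, stood at 76.5, 118 and 69.7 CPM in the WSM libraries, against 14.2 and 9.7 CPM in the NM libraries. For MPK3 the log2 difference was 2.88 ± 0.40 (SE, edgeR adjusted p = 0.0157). OXI1 (AT3G25250), a kinase activated by hydrogen peroxide that acts upstream of MPK3 and MPK6, stood at 16.3, 29.4 and 24.8 CPM in WSM, against 3.69 and 3.35 CPM in NM. The log2 difference of OXI1 was 2.74 ± 0.37 (SE, edgeR adjusted p = 0.0136), that of MKK9 (AT1G73500), which activates the same kinases, 2.71 ± 0.47 (SE, edgeR adjusted p = 0.0318), and that of AP2C1 (AT2G30020), a phosphatase that inactivates MAP kinases, 2.18 ± 0.31 (SE, edgeR adjusted p = 0.0166). MPK6, at 12, 20.2 and 15.68 CPM in WSM, against 19 and 29 CPM in NM, and MPK4, at 24.5, 25.7 and 29.5 CPM in WSM, against 21.2 and 17.78 CPM in NM, were not called. MPK4 shares 22.3% of its exons with an antisense gene. Of 52 genes annotated as protein phosphatase 2C family proteins, 4 rose and 0 fell, AP2C1 among them.

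Receptors and danger signals rose in 3 of 16 listed members, with a list median of 0.92. PROPEP3 (AT5G64905, chromosome 5, 25939562 to 25940080, plus strand), precursor of a peptide released from damaged cells, stood at 62.9, 22 and 19 CPM in the WSM libraries, against 0.857 and 1.63 CPM in the NM libraries. For PROPEP3 the log2 difference was 4.80 ± 0.69 (SE, edgeR adjusted p = 0.0166). PROPEP1 (AT5G64900), precursor of a related peptide, stood at 40.8, 10.2 and 8.75 CPM in WSM, against 0.758 and 1.02 CPM in NM, highest in WSM library 1 like PROPEP3. For PROPEP1 the log2 difference was 4.46 ± 0.80 (SE, edgeR adjusted p = 0.0374). LYK5 (AT2G33580), the chitin receptor kinase, stood at 24.8, 70.9 and 29.2 CPM in WSM, against 2.8 and 2.59 CPM in NM, highest in WSM library 2. For LYK5 the log2 difference was 3.95 ± 0.55 (SE, edgeR adjusted p = 0.0156). The receptors of the PROPEP peptides, PEPR1 (39, 46.6 and 52.6 CPM in WSM, against 20.9 and 22.8 CPM in NM) and PEPR2 (7.22, 8.57 and 6.05 CPM in WSM, against 2.18 and 1.52 CPM in NM), were higher in every WSM library without passing the test (edgeR adjusted p = 0.156 and 0.0742). RBOHD, the oxidase that makes the apoplastic oxidative burst, stood at 266, 141 and 308 CPM in WSM, against 27.8 and 67 CPM in NM, and missed the threshold as well (adjusted p = 0.088).

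The WRKY family, whose members bind the W box in promoters, rose in 14 of 50 genes tested and fell in 0, with a family median log2 difference of 0.80. WRKY40 (AT1G80840, chromosome 1, 30383561 to 30385499, plus strand), a repressor that feeds back on abscisic acid and defence genes, stood at 94.3, 115 and 69.6 CPM in the WSM libraries, against 1.42 and 1.22 CPM in the NM libraries. All 3 WSM libraries lay close together and far above NM. For WRKY40 the log2 difference was 6.13 ± 0.45 (SE, edgeR adjusted p = 0.00441). WRKY22 (AT4G01250), which acts below the pattern-triggered kinase cascade, stood at 49.3, 78.6 and 44.1 CPM in WSM, against 4.75 and 3.25 CPM in NM. For WRKY22 the log2 difference was 3.84 ± 0.43 (SE, edgeR adjusted p = 0.00808). WRKY30 (AT5G24110), known as an early reactive-oxygen responder, stood at 5.98, 15.9 and 12.2 CPM in WSM, against 0.395 and 0.152 CPM in NM. For WRKY30 the log2 difference was 5.30 ± 0.66 (SE, edgeR adjusted p = 0.0111). Those were the 3 members with the lowest adjusted p. WRKY18, WRKY33, WRKY46, WRKY51, WRKY38, WRKY62, WRKY70, WRKY75, WRKY15, WRKY53 and WRKY6 rose too, by log2 differences of 2.00 (WRKY6) to 6.42 (WRKY62). The one with the highest mean CPM was WRKY33 (AT2G38470), a regulator of camalexin synthesis, at 129, 267 and 138 CPM in WSM, against 14.3 and 7.52 CPM in NM. WRKY53 is uncertain, because 20.5% of its exon length is shared with an antisense gene. In WSM library 2 alone against NM, 12 WRKY genes were called higher and 0 lower, and without WSM library 3, 7 were. Without NM library 1 or 3, 0 and 1 were.

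Ethylene-related genes rose in 7 of 22 members, all 7 of them ERF transcription factors, and none fell. They were RRTF1 (also ERF109), ERF13, ERF11, ERF105, ERF6, ERF5 and ERF2. RRTF1 (AT4G34410), a factor that promotes reactive oxygen accumulation, stood at 46.4, 47.5 and 30.2 CPM in the WSM libraries, against 0.956 and 1.47 CPM in the NM libraries. For RRTF1 the log2 difference was 5.10 ± 0.43 (SE, edgeR adjusted p = 0.00506). ERF13 (AT2G44840) stood at 21, 17.7 and 9.15 CPM in WSM, against 0.593 and 0.508 CPM in NM. For ERF13 the log2 difference was 4.82 ± 0.53 (SE, edgeR adjusted p = 0.00784). ERF105 (AT5G51190) stood at 79.6, 127 and 57.6 CPM in WSM, against 5.9 and 4.88 CPM in NM. For ERF105 the log2 difference was 4.03 ± 0.46 (SE, edgeR adjusted p = 0.00922). RRTF1 shares exons with AT4G08985, as above, and ERF105 lies wholly within the exons of the opposite-strand gene AT5G51180, so both are uncertain. ERF6 (33.6, 58.2 and 28.7 CPM in WSM, against 2.9 and 3.96 CPM in NM) and ERF5 (33.2, 73.3 and 23.9 CPM in WSM, against 3.36 and 4.42 CPM in NM), growth-restraining factors of osmotic stress, have no such partner. ACS6, a synthase of the ethylene precursor, stood at 12.2, 62 and 24.5 CPM in WSM, against 3.39 and 2.74 CPM in NM, and just missed the threshold (edgeR adjusted p = 0.0526).

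Zinc finger, MYB and NAC factors had called members too, all of them higher. The zinc finger repressors ZAT10, AZF2, ZAT12 and ZAT6 supplied the 4 rises among 20 genes of mitochondrial and oxidative stress, with a list median of 0.43. AZF2 (AT3G19580) stood at 61.1, 46.8 and 47.1 CPM in the WSM libraries, against 4.38 and 3.91 CPM in the NM libraries. For AZF2 the log2 difference was 3.63 ± 0.34 (SE, edgeR adjusted p = 0.00506). ZAT10 (AT1G27730) differed by 4.18 ± 0.48 (SE, edgeR adjusted p = 0.00922) and ZAT12 (AT5G59820) by 3.36 ± 0.58 (SE, edgeR adjusted p = 0.032). The mitochondrial members of that list, such as OM66 (45.4, 116 and 167 CPM in WSM, against 18.22 and 12.3 CPM in NM; edgeR adjusted p = 0.0576), were not called. MYB15 (AT3G23250), an activator of lignin synthesis in defence, stood at 36.3, 26.7 and 22.7 CPM in WSM, against 1.19 and 0.61 CPM in NM, and differed by 4.94 ± 0.46 (SE, edgeR adjusted p = 0.00506), and MYB51 by 3.02 ± 0.39 (SE, edgeR adjusted p = 0.0123), while the other 61 of 63 MYB genes were not called. NAC genes rose in 3 of 50 listed members: NAC102 (174, 152 and 147 CPM in WSM, against 14.6 and 21.5 CPM in NM), NAC036 (1.86, 16.4 and 12.6 CPM in WSM, against 0.363 and 0.102 CPM in NM) and NAC062 (27.6, 43.8 and 41 CPM in WSM, against 9.29 and 10.4 CPM in NM). The NAC factors ATAF2 (160.5, 186 and 210.2 CPM in WSM, against 15.2 and 19.1 CPM in NM) and ATAF1 (81.5, 109 and 120.1 CPM in WSM, against 10.4 and 19.7 CPM in NM), outside the list, rose as well, by 3.44 ± 0.37 (SE, edgeR adjusted p = 0.00773) and 2.78 ± 0.42 (SE, edgeR adjusted p = 0.02). ATAF1 shares 20.8% of its exons with an antisense gene. Among families named by their annotation, a grouping chosen after the values were seen, VQ motif proteins, which bind WRKY factors, had 6 of 22 members called higher and a median of 1.46. AT1G17147 was the one with the lowest adjusted p, at 23.9, 11.2 and 18.9 CPM in WSM, against 0.395 and 0.203 CPM in NM. For AT1G17147 the log2 difference was 5.82 ± 0.56 (SE, edgeR adjusted p = 0.00517). FAD-binding berberine family proteins had 4 of 17 called higher, and integrase-type (AP2) DNA-binding proteins 7 of 55.

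The 250 bases before the annotated start were read for 279 risen protein-coding genes and for all 19322 protein-coding nuclear genes tested (TAIR10.1, RefSeq starts, both strands). The W box, searched as TTGACC or TTGACT, was found in 139 of the risen genes (49.8%), against 28.4% of all, and at least 2 copies in 22.6%, against 6.01% of all. The rapid stress response element CGCGTT was in 8.6% of risen genes, against 2.82% of all, and the heat shock element GAANNTTC in 49 of 279, against 1814 of 19322. The G box CACGTG was in 8.96%, against 7.34%, the GCC box GCCGCC in 3.94%, against 1.95%, and ACGTGT or ACGTGG, read as an abscisic acid element, in 24.7%, against 17.1%. The G box and the abscisic acid element can overlap. These shares are descriptions without a test, and a match is not a bound site. Promoters of 4 risen genes are shown because they carry several, one or none of the first 2 motifs, with W boxes and CGCGTT (either strand) in capitals, 5′ to 3′ on the gene's strand; the choice was made after the motifs were counted.

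PROPEP3 (chr5:25939312-25939561, plus strand) with 4 W boxes:
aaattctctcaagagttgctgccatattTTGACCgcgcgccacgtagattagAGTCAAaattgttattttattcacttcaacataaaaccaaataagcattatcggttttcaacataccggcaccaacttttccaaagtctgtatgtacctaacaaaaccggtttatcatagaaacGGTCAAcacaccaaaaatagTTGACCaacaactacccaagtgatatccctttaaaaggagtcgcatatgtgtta
WRKY30 (chr5:8154711-8154960, minus strand) with 3 W boxes:
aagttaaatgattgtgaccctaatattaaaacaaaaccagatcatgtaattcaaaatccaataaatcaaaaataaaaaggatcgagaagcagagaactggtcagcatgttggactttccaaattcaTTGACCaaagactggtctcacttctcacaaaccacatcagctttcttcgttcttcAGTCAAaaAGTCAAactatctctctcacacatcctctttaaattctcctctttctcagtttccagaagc
LOX4 (chr1:27308263-27308512, plus strand) with 1 CGCGTT:
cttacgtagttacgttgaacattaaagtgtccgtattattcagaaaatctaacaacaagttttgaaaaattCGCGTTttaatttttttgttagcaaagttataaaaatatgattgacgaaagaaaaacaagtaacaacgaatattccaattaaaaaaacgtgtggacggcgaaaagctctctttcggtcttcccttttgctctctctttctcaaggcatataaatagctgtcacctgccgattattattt
WRKY40 (chr1:30383311-30383560, plus strand) with no match in this window:
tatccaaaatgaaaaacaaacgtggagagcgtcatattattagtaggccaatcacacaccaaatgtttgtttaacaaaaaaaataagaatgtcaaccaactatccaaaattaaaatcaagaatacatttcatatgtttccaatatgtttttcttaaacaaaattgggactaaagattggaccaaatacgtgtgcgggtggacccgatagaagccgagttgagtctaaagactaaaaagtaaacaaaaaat

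Jasmonate genes rose in both lists, among them enzymes of synthesis and of breakdown. Of 18 genes of synthesis and turnover 5 rose and 0 fell, with a median of 0.61, and of 16 JAZ repressors and response genes 4 rose and 0 fell, with a median of 1.34. LOX4 (AT1G72520, chromosome 1, 27308513 to 27312756, plus strand), a lipoxygenase at the first step of synthesis, stood at 30.5, 40 and 21.8 CPM in the WSM libraries, against 0.461 and 0.813 CPM in the NM libraries. For LOX4 the log2 difference was 5.62 ± 0.48 (SE, edgeR adjusted p = 0.00506). CYP94B3 (AT3G48520, chromosome 3, 17974853 to 17976774, minus strand), which hydroxylates and so inactivates jasmonoyl-isoleucine, was nearly equal in the WSM libraries, at 32.6, 40.2 and 40.5 CPM in WSM, against 1.12 and 1.73 CPM in NM. For CYP94B3 the log2 difference was 4.74 ± 0.38 (SE, edgeR adjusted p = 0.00506). LOX3 (AT1G17420), the partner lipoxygenase of LOX4, differed by 3.27 ± 0.45 (SE, edgeR adjusted p = 0.0155), AOC3, an allene oxide cyclase, by 2.25 ± 0.43 (SE, edgeR adjusted p = 0.0469), and OPCL1, which activates the side chain for its shortening, by 2.02 ± 0.39 (SE, edgeR adjusted p = 0.0479). The synthesis enzymes AOS (53.8, 48.4 and 24 CPM in WSM, against 13.1 and 30.5 CPM in NM) and OPR3 (46.8, 41.7 and 24.7 CPM in WSM, against 19.9 and 28.7 CPM in NM) had overlapping groups and were not called, and neither was JAR1 (20.4, 16.8 and 17.77 CPM in WSM, against 26 and 39.1 CPM in NM), which makes the active conjugate and was lower in every WSM library. JAZ1 (AT1G19180), a repressor made in response to the hormone, stood at 232, 218 and 165 CPM in WSM, against 30.7 and 30 CPM in NM. For JAZ1 the log2 difference was 2.76 ± 0.36 (SE, edgeR adjusted p = 0.0131). JAZ5 (AT1G17380) differed by 3.06 ± 0.45 (SE, edgeR adjusted p = 0.0172) and JAZ10 (AT5G13220) by 2.75 ± 0.53 (SE, edgeR adjusted p = 0.0499). JAZ7 (AT2G34600) stood at 1.65, 4.37 and 1.89 CPM in WSM, against 0 and 0 CPM in NM; it had no count in NM and was at least 51.9-fold higher in WSM (edgeR adjusted p = 0.0279), with 3 counts over both NM libraries as the floor.

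Regulators of salicylate and defence rose in 4 of 15 members, with a median of 1.14. These were CBP60G, the glutaredoxin GRX480 (53.8, 13.3 and 14.5 CPM in WSM, against 0.527 and 0.66 CPM in NM), WRKY70 (16.7, 17.7 and 55.9 CPM in WSM, against 2.08 and 1.32 CPM in NM) and NPR3, a salicylate receptor that restrains defence (33, 74.2 and 53.2 CPM in WSM, against 11.7 and 4.78 CPM in NM). Their log2 differences were 5.49 ± 0.79 (SE, edgeR adjusted p = 0.0169) for GRX480, 4.14 ± 0.66 (SE, edgeR adjusted p = 0.0242) for WRKY70 and 2.70 ± 0.52 (SE, edgeR adjusted p = 0.0472) for NPR3. WRKY70 was highest in WSM library 3 and GRX480 in WSM library 1. PR1, the classical late marker of this pathway, stood at 0.413, 0.136 and 0.322 CPM in WSM, against 0.923 and 1.93 CPM in NM, with the WSM libraries below both NM libraries and no call (edgeR adjusted p = 0.249). Of 13 genes of camalexin and indole glucosinolates 2 rose, MYB51 and CYP81F2 (15.5, 9.25 and 43.9 CPM in WSM, against 2.08 and 1.63 CPM in NM), a hydroxylase of indole glucosinolates that differed by 3.63 ± 0.70 (SE, edgeR adjusted p = 0.0479). CYP79B2 (27.8, 30 and 18.4 CPM in WSM, against 38.6 and 43.2 CPM in NM), at the entry of both pathways, was lower in every WSM library without a call.

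Detoxification genes had the highest list median of those with a call, 1.87, with 26 of 27 members above 0 and 5 called higher. The 5 were GSTU11, GSTU1, OPR1, UGT73B3 and UGT73B5. OPR1 (AT1G76680), a reductase of reactive oxylipins and other electrophiles, stood at 92, 295 and 178 CPM in WSM, against 15.8 and 21.5 CPM in NM. For OPR1 the log2 difference was 3.34 ± 0.56 (SE, edgeR adjusted p = 0.0279). UGT73B3 (AT4G34131) stood at 53.2, 58.9 and 94.1 CPM in WSM, against 11.3 and 10.6 CPM in NM. For UGT73B3 the log2 difference was 2.65 ± 0.38 (SE, edgeR adjusted p = 0.0168). The glucosyltransferases UGT73B2, UGT73B3 and UGT73B5 were the 3 rises among 50 listed UDP-glycosyltransferases. AT1G05675, annotated to the same superfamily but outside the list, rose too. The 3 UGT73B genes are close relatives, as are OPR1 and OPR2. How reads shared by such copies were counted is not given in the sources used here. Of the detoxification genes 11 were called higher in WSM library 2 alone against NM and 10 without WSM library 1, but 2 without WSM library 3, 1 against a fold threshold of log2 1, and 0 without either NM library. Cytochromes P450 moved in 7 of 132 members, with a median of 0.03. CYP81D11 (37.5, 136 and 49.5 CPM in WSM, against 1.81 and 4.01 CPM in NM), CYP706A1 (82.5, 58.8 and 110.1 CPM in WSM, against 8.3 and 9.35 CPM in NM), CYP706A2 (38.8, 28.7 and 68.6 CPM in WSM, against 4.22 and 3.76 CPM in NM), CYP94B3, CYP81F2 and CYP707A3 rose and CYP96A3 fell. Ubiquitin ligases listed as PUB rose in 3 of 20 members, with CMPG1, a relative under another symbol that also rose, left out. PUB22, PUB23 and PUB24 are the trio known to damp pattern-triggered responses. PUB24 (AT3G11840) stood at 7.63, 9.35 and 10.2 CPM in WSM, against 0.494 and 0.711 CPM in NM, and differed by 3.92 ± 0.46 (SE, edgeR adjusted p = 0.00945), PUB22 by 2.19 ± 0.35 (SE, edgeR adjusted p = 0.025) and PUB23 by 2.99 ± 0.42 (SE, edgeR adjusted p = 0.0156), the last with 27.3% of its exons in an antisense gene. Of 10 listed ATL ligases none was called with edgeR and 1 was higher with DESeq2. ATL6, the one with the highest CPM, stood at 52.4, 28.5 and 34.5 CPM in WSM, against 9.33 and 22.3 CPM in NM. CNI1 (AT5G27420), a relative of ATL6 filed under another symbol, was called higher and lies outside the list.

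**Figure D4:**
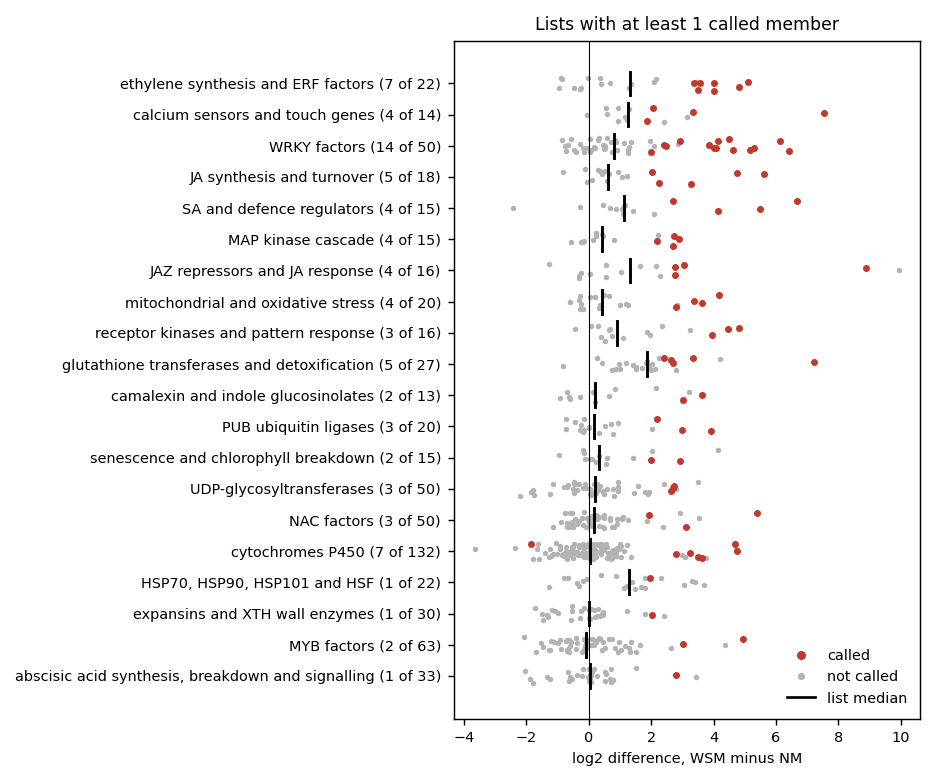
Log2 difference (WSM minus NM) of every tested member of the 20 lists with at least 1 called gene, called members in red and list medians as black bars, with called and tested numbers beside each name. ERF, calcium and WRKY genes have the largest called shares, and only 1 called point, CYP96A3, lies left of zero.

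Whether water deficit markers were called depended on the fit. With edgeR on all libraries, of 21 water deficit markers 0 were called, with a median of 0.63, of 15 LEA genes 0, with a median of 1.19, and of 33 abscisic acid genes 1 rose, with a median of 0.04. With DESeq2 4 of the 21 markers and 3 of the 15 LEA genes were called higher, in the joint fit with wild type 5 of 18 and 4 of 15, and without WSM library 1 edgeR called 2 of the 21 markers. The marker median was 0.10 without NM library 1 and 1.34 without NM library 3. Of the 33 abscisic acid genes DESeq2 called 2 higher and 2 lower, and the joint fit 3 higher and 3 lower. Without WSM library 1 edgeR called 1 of them higher and 2 lower. The 1 abscisic acid gene called with edgeR on all libraries was CYP707A3 (AT5G45340), which breaks abscisic acid down. It stood at 31.8, 62.5 and 42.9 CPM in the WSM libraries, against 7.48 and 5.84 CPM in the NM libraries. For CYP707A3 the log2 difference was 2.78 ± 0.40 (SE, edgeR adjusted p = 0.016). NCED3, the rate-limiting synthesis enzyme, stood at 10.11, 13 and 6.85 CPM in WSM, against 0.264 and 1.63 CPM in NM, and was not called (edgeR adjusted p = 0.0733). The receptors PYL1 (12.8, 12.8 and 10.5 CPM in WSM, against 26.9 and 30.4 CPM in NM) and PYL6 (4.54, 1.8 and 3.83 CPM in WSM, against 10.4 and 16.5 CPM in NM) were lower in every WSM library, at adjusted p = 0.0752 and 0.0864. Marker by marker, DREB2A (21, 13.4 and 44.3 CPM in WSM, against 2.18 and 4.42 CPM in NM; adjusted p = 0.0534) and RD29B (5.57, 2.75 and 2.54 CPM in WSM, against 1.25 and 0.914 CPM in NM; adjusted p = 0.272) lay higher in every WSM library, and neither passed the test. RD29A (31.4, 21.8 and 18.1 CPM in WSM, against 22.7 and 37.8 CPM in NM), P5CS1 (11.1, 13.1 and 10.2 CPM in WSM, against 6.46 and 11.4 CPM in NM), the rate-limiting enzyme of proline synthesis, and RAB18 (11.1, 2.34 and 1.45 CPM in WSM, against 1.42 and 3.15 CPM in NM) overlapped between the media. COR47, the gene with the highest CPM in both the marker and the LEA list, overlapped too, at 613, 233 and 437 CPM in WSM, against 293 and 419 CPM in NM. The LEA median was 1.33 above the genes' own means in WSM library 1, and -0.65 and 0.21 in WSM libraries 2 and 3, against -0.66 and -0.32 in NM libraries 1 and 3. Without WSM library 1 the LEA median was 0.51, and in WSM library 2 alone against NM it was -0.10. Of 21 genes of proline, galactinol and trehalose metabolism 0 were called with edgeR, with a median of 0.04, and DESeq2 called 1 higher and 2 lower.

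Listed small heat shock genes were highest in a single library. The 5 listed genes had a median log2 difference of 3.597 and 0 calls with edgeR. DESeq2 called 4 of the 5 higher and the joint fit with wild type 3 of 4. Other names of this kind, such as HSP17.8, HSP22 and HSP23.6, matched no gene and were dropped. Of 28 genes annotated as HSP20-like chaperones 0 were called, with a median of 0.60. HSP17.6 (AT5G12030), a chaperone that binds unfolding proteins, stood at 29.9, 21.4 and 176 CPM in the WSM libraries, against 3.2 and 7.52 CPM in the NM libraries. For HSP17.6 the log2 difference was 3.83 ± 1.00 (SE, edgeR adjusted p = 0.134). WSM library 3 was several times above WSM libraries 1 and 2, which themselves lay above NM, and without WSM library 3 the list median was 2.04. Of 22 larger chaperones and heat shock factors HSFB2A (33, 26.7 and 33.8 CPM in WSM, against 6.72 and 9.4 CPM in NM) rose, by 1.95 ± 0.32 (SE, edgeR adjusted p = 0.0259), and HSP101 (35.9, 26.8 and 125 CPM in WSM, against 10.5 and 29.1 CPM in NM; adjusted p = 0.356) did not pass. HSFB2A was the 1 call with edgeR in that list, whose median was 1.304. DESeq2 called 8 of the 22 higher and 0 lower, and the joint fit with wild type 7 higher and 1 lower. Without WSM library 3 edgeR called 0 of them. None of 18 genes of endoplasmic reticulum stress was called with edgeR, and 1 was lower with DESeq2. SHD, a chaperone of that compartment, stood at 400.3, 317 and 358 CPM in WSM, against 460.3 and 299 CPM in NM, and BIP1 at 161, 104 and 138 CPM in WSM, against 281 and 377 CPM in NM, lower in every WSM library (adjusted p = 0.15). Hypoxia genes (15 tested, 0 called with edgeR and 4 higher with DESeq2) had a median of 1.35. ADH1, the alcohol dehydrogenase of fermentation, stood at 1003, 40 and 622 CPM in WSM, against 72.9 and 721 CPM in NM, with overlapping groups, and in WSM library 2 alone against NM the median was -0.64.

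Root hair genes split the WSM libraries. Root hairs are outgrowths of epidermal cells that take up water and nutrients, and their growth needs the factor RSL4 and a set of wall proteins made almost nowhere else. With all libraries 0 of 19 listed genes were called, with a median of -1.21. In 17 of the 19, WSM libraries 2 and 3 were below both NM libraries, and in 18 WSM library 1 was above both other WSM libraries. RSL4 (AT1G27740) stood at 11.3, 0.712 and 1.33 CPM in WSM libraries 1, 2 and 3, against 9.1 and 12.6 CPM in NM libraries 1 and 3. PRP3 (AT3G62680), a proline-rich wall protein and the member with the highest CPM, stood at 259, 20.2 and 8.26 CPM in WSM libraries 1, 2 and 3, against 209.9 and 154 CPM in NM libraries 1 and 3. RHS15 (AT4G25220), named as root hair specific, stood at 13.4, 1.05 and 0.726 CPM in WSM libraries 1, 2 and 3, against 17 and 19.5 CPM in NM libraries 1 and 3. WSM library 1 sat within or above the NM libraries in RSL4 and PRP3 and somewhat below them in RHS15, while WSM libraries 2 and 3 were far lower in all 3. Without WSM library 1, 13 of the 19 were called lower and 0 higher, with a median of -3.22, beside 0.635% of all genes called lower in that fit. There RSL4 differed by -3.37 ± 0.47 (SE, edgeR adjusted p = 0.00957), PRP3 by -3.65 ± 0.52 (SE, edgeR adjusted p = 0.0104) and RHS15 by -4.31 ± 0.39 (SE, edgeR adjusted p = 0.00286). In WSM library 2 alone against both NM libraries, 11 of the 19 were called lower and 0 higher, with a median of -2.65, beside 0.444% of all genes. Here too the spread comes from the NM libraries alone, and the lone WSM library is assumed to vary like them. The library left out is also the shallowest and has the largest rRNA share, and the part of these in the difference was not tested. In seedlings sampled in bulk, fewer cells of a type and less RNA per cell cannot be told apart. Endodermis and suberin genes (20 tested, median -0.43; KCS20, a wax and suberin chain elongase, at 80.2, 121 and 63.4 CPM in WSM, against 79.6 and 144 CPM in NM) and arabinogalactan genes (18 tested, median -0.48; AGP31 at 275, 203 and 184 CPM in WSM, against 249.9 and 144 CPM in NM) had 0 calls with edgeR, and DESeq2 called 4 of the arabinogalactan genes lower.

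**Figure D5:**
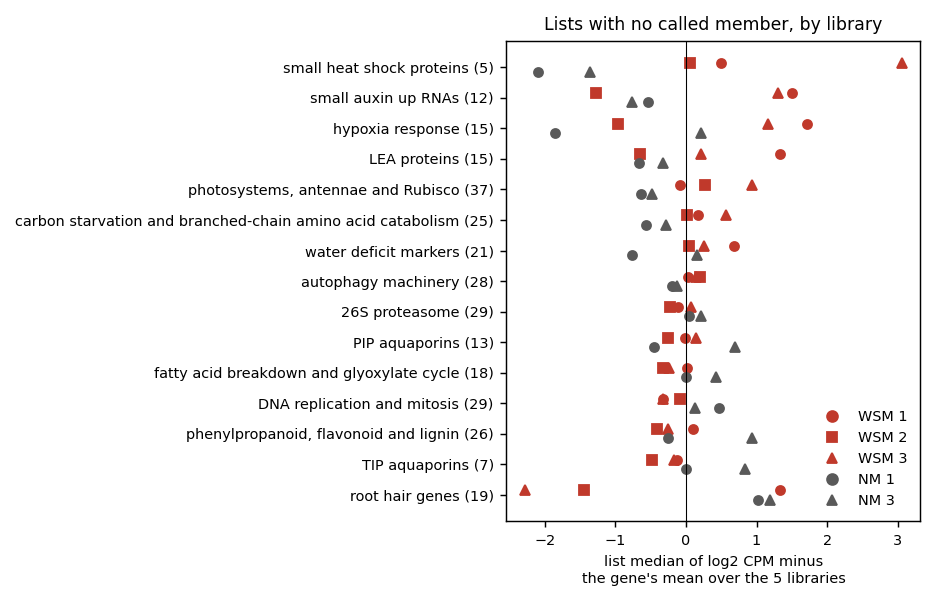
For 15 lists with no called member, the list's median of log2 CPM minus each gene's mean over the 5 libraries, with a red symbol for each WSM library above a grey symbol for each NM library. Root hair genes are at 1.33 in WSM library 1, against -1.44 and -2.28 in the other WSM libraries and 1.02 and 1.19 in NM; small heat shock genes reach 3.06 in WSM library 3.

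Genes of the photosystems, antennae and Rubisco were higher in WSM without a call for any member in edgeR, while DESeq2 called 6 higher. All 37 had a log2 difference above 0, 30 with groups that did not overlap (17.1% of all genes did so in this direction), and the median was 1.02. LHCB1.3 (AT1G29930), an antenna protein of photosystem II, stood at 5857, 6902 and 10559.6 CPM in the WSM libraries, against 3297 and 4225 CPM in the NM libraries. For LHCB1.3 the log2 difference was 1.05 ± 0.57 (SE, edgeR adjusted p = 0.457). RBCS1A, a small subunit of Rubisco, stood at 3325, 6010.03 and 7062 CPM in WSM, against 3506 and 4571 CPM in NM, and overlapped. The list was highest in WSM library 3, with medians of -0.08, 0.27 and 0.94 in WSM libraries 1, 2 and 3, against -0.64 and -0.49 in NM libraries 1 and 3. Without WSM library 3 the list median was 0.63. Plastid-encoded genes (83 tested, 0 called with edgeR and 1 with DESeq2) split the NM libraries instead: rbcL, the large subunit of Rubisco, stood at 799.7, 1037 and 1106 CPM in WSM, against 1501 and 144 CPM in NM. Their median was 1.43 in NM library 1 and -2.84 in NM library 3. Mitochondrion-encoded genes (30 tested, 0 called with edgeR and 1 with DESeq2) split likewise, at 1.23 and -1.76, with rps3 at 61.5, 93.9 and 55.1 CPM in WSM, against 128 and 13.3 CPM in NM. The library kit selects messenger RNA, and most organelle transcripts carry no stable poly(A) tail.

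The listed growth, transport and reserve genes gave no calls with edgeR, apart from XTH23. DESeq2 called 3 expansins or XTH enzymes higher and 2 lower. It also called 2 glycerol metabolism genes, 1 small auxin up RNA and 1 nutrition gene higher. Called lower were 1 plasma membrane aquaporin and 1 fatty acid breakdown gene, and 1 other auxin gene was called in each direction. XTH23 (AT4G25810), a wall-loosening enzyme, rose, at 75.3, 71.2 and 108 CPM in WSM, against 18.8 and 22.8 CPM in NM, a log2 difference of 2.03 ± 0.35 (SE, edgeR adjusted p = 0.0323). That was the 1 call with edgeR among 30 expansins and XTH enzymes. DNA replication and mitosis genes were below 0 in 25 of 29, with a median of -0.50, beside 10229 of all 20492 genes below 0. In 13 of the 29 all WSM libraries lay below both NM libraries and in 0 above them, beside 15.3% of all genes wholly lower. KNOLLE, a syntaxin of cell plate formation, overlapped, at 33.6, 19.6 and 28.3 CPM in WSM, against 25.7 and 30.9 CPM in NM, with 33.5% of its exons in an antisense gene. Aquaporins of the plasma membrane (13 tested, median -0.33; PIP1B at 558, 652 and 799 CPM in WSM, against 469 and 1384 CPM in NM) and of the tonoplast (7 tested, median -0.62; TIP1;2 at 649.7, 536 and 549 CPM in WSM, against 745 and 1586 CPM in NM) had their highest list medians in NM library 3. Phenylpropanoid and flavonoid genes (26 tested, median -0.52; CHS, the first enzyme of flavonoid synthesis, at 727, 638 and 871 CPM in WSM, against 603 and 1449.7 CPM in NM) had their highest median there too. The entry CCR2 was dropped from the phenylpropanoid list because its name was ambiguous. The gene with that symbol at AT1G80820 was called higher and lies outside the list. Fatty acid breakdown and glyoxylate cycle genes were below 0 in 16 of 18, with a median of -0.39. ICL, isocitrate lyase, stood at 5669, 1247 and 1848 CPM in WSM, against 1853 and 9258 CPM in NM, with overlapping groups. Seed storage and oil body genes (12 tested) had a median of 0.66, which was -1.18 without WSM library 1; CRA1, a cruciferin storage protein, stood at 86.8, 3.86 and 8.79 CPM in WSM, against 4.09 and 25.9 CPM in NM. Genes of glycerol metabolism, 10 in all, had a median of -0.05. NHO1, the glycerol kinase, stood at 115, 52.3 and 122 CPM in WSM, against 63.5 and 109 CPM in NM, with overlapping groups; WSM contained glycerol. The 12 listed small auxin up RNAs were all above 0, with a median of 1.57 that was -0.79 in WSM library 2 alone against NM. SAUR29 stood at 17.3, 1.56 and 9.27 CPM in WSM, against 1.25 and 2.24 CPM in NM. Of 50 genes annotated as SAUR-like auxin-responsive family proteins 0 were called, with a median of 0.39. Other auxin genes (30 tested, median -0.14; IAA16 at 167, 133 and 193 CPM in WSM, against 84.1 and 67.5 CPM in NM), the clock (18 tested, median -0.06; LHY at 103, 168 and 139 CPM in WSM, against 49.4 and 249 CPM in NM), stomatal lineage genes (14 tested, median -0.13; TMM at 9.9, 7.32 and 12.9 CPM in WSM, against 8.54 and 27.3 CPM in NM) and iron, nitrate and phosphate genes (21 tested, median -0.04; GLN2 at 550.3, 558 and 946 CPM in WSM, against 426 and 467 CPM in NM) stayed without a call in edgeR.

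The listed protein and carbon recycling genes had no call with edgeR in these autophagy mutant seedlings, apart from a pair of senescence factors. Of 28 genes of the autophagy machinery 0 were called with edgeR and 1 with DESeq2, 22 were above 0 and the median was 0.22. ATG8F (AT4G16520), a ubiquitin-like protein of the autophagosome membrane, had the lowest adjusted p among them, at 41.5, 42.1 and 50.8 CPM in the WSM libraries, against 15.6 and 20.2 CPM in the NM libraries. For ATG8F the log2 difference was 1.33 ± 0.30 (SE, edgeR adjusted p = 0.0903). The entries ATG1A, ATG1B, ATG1C, ATG13A, ATG13B, ATG14A, ATG14B, ATG16, ATG4A and ATG4B matched no gene name and were dropped from this list. NBR1, a cargo receptor for autophagy, stood at 76.5, 58.2 and 79.4 CPM in WSM, against 67.8 and 140.2 CPM in NM, with overlapping groups. Of 29 proteasome genes 0 were called and 21 were below 0, with a median of -0.24; RPT1A, an ATPase of its regulatory particle, stood at 120.04, 138 and 156 CPM in WSM, against 147 and 130.2 CPM in NM. Carbon starvation and branched-chain amino acid catabolism genes (25 tested, 0 called with edgeR and 3 higher with DESeq2) were above 0 in 21, with a median of 0.83. GDH2, a glutamate dehydrogenase, stood at 277, 96.5 and 209 CPM in WSM, against 88.1 and 112 CPM in NM, and DIN10, a raffinose synthase family gene, at 117, 68.6 and 231 CPM in WSM, against 68.8 and 87.5 CPM in NM. Senescence genes rose in 2 of 15 members, WRKY53 and WRKY6, which are also counted among the WRKY genes. WRKY6 differed by 2.00 ± 0.30 (SE, edgeR adjusted p = 0.0203) and WRKY53 by 2.92 ± 0.54 (SE, edgeR adjusted p = 0.0411).

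The 8 genes that fell had log2 differences between -1.42 (AT1G62020) and -3.21 (AMT1;3). AMT1;3 (AT3G24300, chromosome 3, 8805519 to 8807460, minus strand), a root ammonium transporter, fell furthest, at 0.413, 1.63 and 0.564 CPM in the WSM libraries, against 5.77 and 12 CPM in the NM libraries, a log2 difference of -3.21 ± 0.62 (SE, edgeR adjusted p = 0.0493); it is named here although its mean was under 5 CPM. Every WSM library lay below both NM libraries. AT3G20015 (chromosome 3, 6978477 to 6980523, minus strand), an aspartyl protease family protein, stood at 1.65, 1.73 and 2.22 CPM in WSM, against 6.56 and 21.2 CPM in NM. For AT3G20015 the log2 difference was -2.87 ± 0.52 (SE, edgeR adjusted p = 0.0394). AT1G23030, an ARM repeat protein, stood at 13.4, 11.4 and 10.2 CPM in WSM, against 34.8 and 49.8 CPM in NM. For AT1G23030 the log2 difference was -1.87 ± 0.30 (SE, edgeR adjusted p = 0.0242). CYP96A3 (AT1G65340), of a P450 family that includes hydroxylases of wax alkanes, stood at 3.09, 3.73 and 3.95 CPM in WSM, against 11.4 and 14.7 CPM in NM. For CYP96A3 the log2 difference was -1.84 ± 0.34 (SE, edgeR adjusted p = 0.0407). AT1G62020, the alpha subunit of the coatomer of Golgi vesicles, stood at 15.1, 18.6 and 17.57 CPM in WSM, against 41.9 and 49.6 CPM in NM. For AT1G62020 the log2 difference was -1.42 ± 0.27 (SE, edgeR adjusted p = 0.0489). TRM28 (12.4, 8.71 and 9.83 CPM in WSM, against 25.3 and 34.5 CPM in NM) and the antisense RNA gene AT5G03668 (3.3, 3.02 and 2.66 CPM in WSM, against 10.8 and 15.3 CPM in NM) overlap and count as a single place, and AT3G61920 (0.825, 1.63 and 0.806 CPM in WSM, against 5.5 and 8.53 CPM in NM; -2.63 ± 0.51 (SE, edgeR adjusted p = 0.0499)) completes the set. Of these 8, 7 were called lower again without WSM library 1, 3 without WSM library 2 and 1 in WSM library 2 alone against NM. None was called again without WSM library 3, without either NM library or against a fold threshold of log2 1.

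The 778 genes listed for atg5 but not for wild type were mostly weakly expressed, with a median level of 0.965 CPM, against 10.4 CPM for the 19714 genes in both tables. Only 3 of them were called, all higher (0.386%, against 1.52% of the genes in both tables). AT3G46080 (chromosome 3, 16922514 to 16923299, minus strand), a C2H2 zinc finger protein, stood at 5.57, 2.78 and 10 CPM in the WSM libraries, against 0.132 and 0.305 CPM in the NM libraries. For AT3G46080 the log2 difference was 4.84 ± 0.81 (SE, edgeR adjusted p = 0.0279). AT4G37710 (chromosome 4, 17718118 to 17718771, plus strand), a VQ motif protein, stood at 10.3, 1.15 and 8.06 CPM in WSM, against 0 and 0 CPM in NM. AT3G00800 (chromosome 3, 16788890 to 16789135, plus strand), annotated as an uncharacterized RNA, stood at 0.825, 4.34 and 2.22 CPM in WSM, against 0 and 0 CPM in NM. Both had 0 counts in NM, and were at least 80.1-fold (AT4G37710) and 52.7-fold (AT3G00800) higher in WSM (edgeR adjusted p = 0.0406 and 0.0413), with 3 counts over both NM libraries as the floor. None of the 3 was called without WSM library 3, while without WSM library 1 there were 25 calls among these rows and in WSM library 2 alone 17.

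The authors' deposited table marks 437 genes as higher and 24 as lower in WSM, each with an absolute log2 fold change of at least 2.005 and an adjusted p of at most 0.00968. Of the 303 genes called here, 262 carry the authors' mark in the same direction, and all 303 have an adjusted p under 0.05 with the same sign in the authors' deposited table. Both tests rest on counts of the same 5 libraries, so this is no independent check.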

How the data were processed

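RNA-seq counts of Arabidopsis seedlings labelled atg5 were compared between WSM (3 libraries) and NM (2 libraries). Per the labels' protocols, RNA was made into stranded mRNA libraries and sequenced in pairs. The submitters' processing notes name TAIR10 with DESeq2, bedtools, Bowtie2 and bcl2fastq. Those sources give no versions. Per the file headers, the authors deposited raw counts for each gene beside the p-values and log2 fold changes of their own test. Their 10 normalized columns were not used. Column names give genotype, medium and a number. Some wild-type columns carry a number that no title has, so the numbers were not taken as those of the titles and each column was assigned to a group only. Counts ignored strand: of 635 genes lying almost wholly inside an opposite-strand gene's exons, 629 did not clearly exceed that gene's counts.

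Counts were fitted with edgeR's quasi-likelihood test (edgeR 4.0.16, R 4.3.3; TMM, filterByExpr, which removed 0 genes, medium as the only term, 3 residual degrees of freedom), with Benjamini-Hochberg adjustment over all 20492 genes and a threshold of 0.05. CPM are counts scaled by edgeR's TMM-adjusted library totals, and SE is derived from the quasi-likelihood F statistic. Depth is 3076084 to 16634690 counts a library outside the rRNA regions, and intervals and floors (3 counts) cover counting error only. The fit was first tested on simulated data, where it left most of the added changes uncalled, so the lack of a call does not show that a gene did not change. Some calls there fell on unchanged genes, a larger share than the threshold sets, so some calls here may be false as well. Names, positions and promoters came from RefSeq's TAIR10.1 annotation, which held every row name. A total of 48 lists with 1198 distinct tested genes were described by counts of calls and medians, without a set test. A further 85 list entries without a single match and 9 that matched another gene were dropped, as was 1 list whose pattern mixed gene families. Members, lists and rules were chosen with earlier results of these data known. Named genes are ATG5 and 3 genes at the PREP1 locus, the 10 largest rises and falls with at least 5 CPM, up to 3 called members of each list by adjusted p, called genes of rows found only for atg5, the member with the highest CPM in each list with no call, and 11 markers. Genes named beyond this rule were chosen after their values were seen. Alternatives were DESeq2 1.42.0, RLE factors, no filter, each library left out, a block by column number, removal of rRNA-region genes, removal of the 2 WSM libraries with PREP1 counts, a length correction, a fold threshold of log2 1 and a joint fit with the 5 wild-type libraries. A pseudocount test was not run, since the tables hold counts. A further promoter is not reported here.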

Additional observations from a re-analysis of the deposited data

How the results depend on the processing

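Calls higher and lower in WSM, 295 and 8 as reported, were 826 and 217 with DESeq2, 1029 and 520 in the joint fit with wild type (19714 genes), and 117 and 0 against a fold threshold of log2 1. Calls lower were 91 in WSM library 2 alone against NM. Without each library in turn, calls higher ranged from 3 to 483 and calls lower from 0 to 130; where 1 library of a group was left, here and for WSM library 2 alone, it was assumed to vary like the other group. Of the 303 calls, 302, 232 and 104 were made again without WSM library 1, 2 and 3, and 3 and 13 without NM library 1 and 3. Calls among genes listed only for atg5, 3 as reported, were 30 with DESeq2, 0 against the fold threshold, 17 in WSM library 2 alone, and 0 to 25 without each library in turn. With the column number as a replicate block the calls were 471 higher and 37 lower, and 24 among genes listed only for atg5. All 5 listed small heat shock genes were called higher in that fit. Deviations of same-numbered libraries from their group means correlated at -0.257 and -0.02. With 2 NM libraries, whose deviations mirror each other, these values cannot show whether the numbers pair the libraries. All 303 called genes that could be fitted kept their direction under every alternative, and DESeq2 called all 303 again. The groups of these genes did not overlap and every alternative used these same libraries, so neither is an independent check. RLE factors, the length correction and leaving out rRNA-region genes kept each of these counts within 1.5 times. As the filter removed 0 genes, the fit without it repeats the reported fit and is no check. Of the named genes' log2 differences none changed sign where called. The causes of the changes in the counts were not tested.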
